A study of Mus musculus with 2 samples.

Results

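The cells described here are adrenal cortical cells that held RNA of many genes of the G2 phase and mitosis. A cell was kept where at least 6 of 16 genes had at least 1 unique molecular identifier (UMI, a tag that counts single RNA molecules). The 16 genes were Mki67, Top2a, Cdk1, Ccna2, Ccnb1, Ccnb2, Birc5, Cenpf, Cenpe, Tpx2, Aurkb, Ube2c, Nusap1, Bub1, Plk1 and Cdc20. A cell counted as cortical where it had at least 1000 UMIs, at least 500 genes, at most 30% mitochondrial UMIs and at least 200 CPM (UMIs of a gene per 1000000 UMIs) of Star, which moves cholesterol into mitochondria for steroid synthesis. The rule kept 100 cells of 6711 cortical cells and of 7328 barcodes in all, and they are called G2/M-gene cells below. They were set against the 5568 cortical cells that held none of the 16 genes, called comparison cells. Because measured RNA chose the cells, the 16 genes and Star are described without a test, and so are other genes of S phase, G2 and mitosis.

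The study profiled sorted single cells of adrenal glands from male mice at 15 weeks of age, with 26 adrenals in all, by droplet 3′ RNA sequencing. The mice carried SF1-Cre and the Rosa mTmG reporter on an otherwise wild-type background. SF1-Cre is active in steroid-producing lineages, and in mTmG cells Cre switches a membrane red protein to a membrane green one. The series held 1 group in 2 libraries with like labels, and how the animals were divided between them was not stated. The G2/M-gene cells and the comparison cells thus shared the animal features given above and both libraries. No label tells which animal a cell came from. Library 1 had 5040 barcodes and 92905273 UMIs, and library 2 had 2288 barcodes and 28023733 UMIs. The 2 files shared 4 barcodes, and none of the chosen cells had one. Cells were sorted as single events positive for a dye that binds DNA and negative for DAPI, so the sort can set how many cells with replicated DNA were collected.

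A dividing cell copies its DNA in S phase, prepares for division in G2 and separates its chromosomes in mitosis. Cyclin A and cyclin B bind the kinase Cdk1 to drive entry into mitosis, and the anaphase-promoting complex, with its activator Cdc20 and its ubiquitin enzyme Ube2c, then has cyclin B destroyed. The adult adrenal cortex renews itself slowly from its outer part, where cells of the zona glomerulosa make aldosterone with Cyp11b2, toward the zona fasciculata, where cells make corticosterone with Cyp11b1.

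Many genes of G2 and mitosis share 2 short promoter elements, the cell cycle genes homology region (TTTGAA), bound by DREAM and related complexes, and the CCAAT box, bound by NF-Y. Promoters were taken from RefSeq (GRCm38.p6) as windows of 300 bases, 250 before and 50 after the gene's start. Windows existed for 13 of the 16 genes. TTTGAA on either strand was in 8 of the 13 (61.5%), against 17.9% of all 32851 windows. CCAAT on either strand was in 11 of the 13 (84.6%), against 37.4% of all windows. Both were in 8 of the 13 (61.5%), against 6.95% of all windows, and 1 pair of matches overlapped. The 200 bases before the start of 4 of those 8 genes, chosen after their matches were seen, follow 5′ to 3′ on the strand of the gene. Both elements, on either strand, are in capitals. Each of the 4 has both elements in these bases, and so do Ccnb2 and Ube2c, which are not printed. Mki67 encodes a coat protein of mitotic chromosomes (chr7:135716380-135716579, minus strand), Top2a the topoisomerase that untangles DNA (chr11:99024190-99024389, minus strand), Cdk1 the mitotic kinase (chr10:69352913-69353112, minus strand) and Cdc20 the activator named above (chr4:118437344-118437543, minus strand). A match describes the letters and shows no binding.
Mki67: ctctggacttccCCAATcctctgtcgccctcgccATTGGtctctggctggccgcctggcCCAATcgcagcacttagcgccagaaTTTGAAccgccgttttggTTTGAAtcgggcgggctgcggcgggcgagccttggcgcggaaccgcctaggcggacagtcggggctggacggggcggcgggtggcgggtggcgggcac
Top2a: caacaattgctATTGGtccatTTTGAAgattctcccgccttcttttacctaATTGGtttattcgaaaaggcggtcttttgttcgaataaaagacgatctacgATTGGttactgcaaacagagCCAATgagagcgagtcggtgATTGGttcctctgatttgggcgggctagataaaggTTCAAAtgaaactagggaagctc
Cdk1: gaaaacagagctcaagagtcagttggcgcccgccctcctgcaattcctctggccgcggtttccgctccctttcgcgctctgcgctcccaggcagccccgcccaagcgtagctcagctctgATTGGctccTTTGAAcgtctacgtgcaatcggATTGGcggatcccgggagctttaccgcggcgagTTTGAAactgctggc
Cdc20: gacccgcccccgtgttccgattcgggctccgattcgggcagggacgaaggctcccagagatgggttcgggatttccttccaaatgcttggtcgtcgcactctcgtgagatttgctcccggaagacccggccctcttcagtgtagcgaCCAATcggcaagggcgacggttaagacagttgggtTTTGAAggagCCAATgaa

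The G2/M-gene cells made up a like share of cortical cells in each library. They were 71 of 4787 cells in library 1 (1.48%, exact Clopper-Pearson 95% interval 1.16% to 1.87%) and 29 of 1924 in library 2 (1.51%, 1.01% to 2.16%). Intervals cover counting error only. A further 8 cells, 4 in each library, met the gene rule but had less Star than the gate asks. The number of the 16 genes held did not fall off evenly: 862 cortical cells held 1 gene, 124 held 2 and 36 held 3, 13 held 4 and 8 held 5, while 10 held 6, 9 held 7 and 24 held all 16. Just inside the rule, the 10 cells with 6 genes had a median of 3588 CPM of 86 other genes of G2 and mitosis, and a median of 24623 UMIs. Just outside it, the 8 cells with 5 genes had a median of 6574 CPM of those genes and 13773 UMIs, and so held no less of this RNA. With every cell thinned to 5000 UMIs, the share was 1.03% in library 1 (47 of 4569 cells) and 1.04% in library 2 (17 of 1642 cells).

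**Figure D1:**
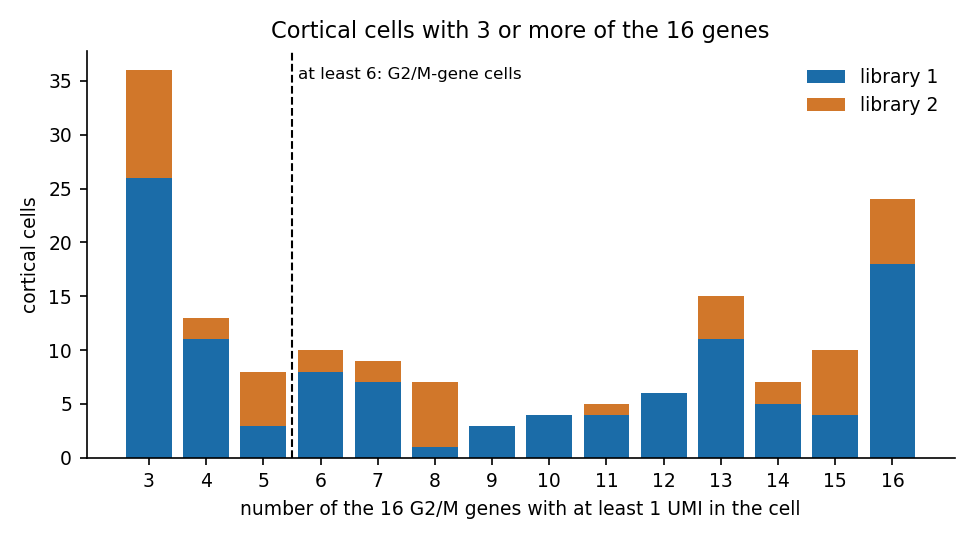
Number of cortical cells (vertical axis) by how many of the 16 genes had a UMI, from 3 to 16, stacked by library, with a dashed line between 5 and 6 genes. Numbers drop to 8 cells at 5 genes, stay at 10 or fewer up to 12 genes and reach 24 cells at 16 genes.

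G2/M-gene cells held more RNA than comparison cells. Their mean was 27858 UMIs in library 1 and 20093 in library 2, against 18467 and 13803 in comparison cells, which is 1.51 and 1.46 times as many. Deeper cells also meet the rule more easily and comparison cells had to lack all 16 genes, and the part of the rule in this difference was not tested. The median mitochondrial share was 4.86% in G2/M-gene cells, against 5.87% in comparison cells.

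Mki67 had a UMI in 95.8% of G2/M-gene cells of library 1 and in 100% of library 2. Cenpf, a centromere protein, had one in 94.4% and 96.6%, and Birc5, which keeps Aurora B kinase at centromeres, also in 94.4% and 96.6%. The rarer genes were Aurkb, Aurora B itself, in 54.9% and 41.4%, Plk1, a kinase of mitotic entry, in 52.1% and 62.1%, and Bub1, a kinase of the spindle checkpoint, in 52.1% and 69.0%. Ccnb1, which encodes cyclin B1, had a UMI in 56.3% and 62.1%. In cells rich in leukocyte genes (over 5000 CPM of the leukocyte list), where free RNA could show, Mki67 had a UMI in 3 of 89 cells of library 1 and 1 of 76 of library 2. These cells were chosen without regard to the Star gate and could include comparison cells, which lack Mki67 by the rule. Star had a UMI in 18 of the 89 and 15 of the 76.

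Hmmr, a spindle protein that was a marker for these cells but no part of the rule (chr11:40701395-40733422 in GENCODE vM21, build GRCm38), had 827 UMIs in the G2/M-gene cells and 5 in the comparison cells. Its level was 293 and 454 normalised CPM in libraries 1 and 2, against 0.0310 and 0.128 in comparison cells. It had a UMI in 71.8% and 62.1% of G2/M-gene cells. Normalised CPM here are UMIs summed over the cells of a library and scaled by edgeR's TMM factors. All 86 other genes of G2 and mitosis had higher levels, with a median log2 difference of 7.88, and so did all 59 S phase genes, with a median of 3.70. Both follow from the choice of cycling cells.

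The label of cells in G2 and mitosis held for some of the chosen cells more than for others. The S phase list (59 genes, among them Rrm2, a subunit of the enzyme that makes deoxynucleotides, and Ccne2, which encodes cyclin E2) ran in the G2/M-gene cells between 411 and 19817 CPM, with a median of 2318, against a median of 663 in comparison cells. At least 5000 CPM of it were in 41 of the 100 cells, 30 of 71 in library 1 and 11 of 29 in library 2, against 13 of 5568 comparison cells. The line at 5000 CPM was drawn after the values were seen, and the highest of the 59 cells under it had 4813 CPM while the lowest of the 41 above it had 5809. These are ranges of a score and not cell types. The other G2 and mitosis list ran between 1454 and 47819 CPM, with a median of 17368 in the 59 cells under the line and 13375 in the 41 above it.

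**Figure D2:**
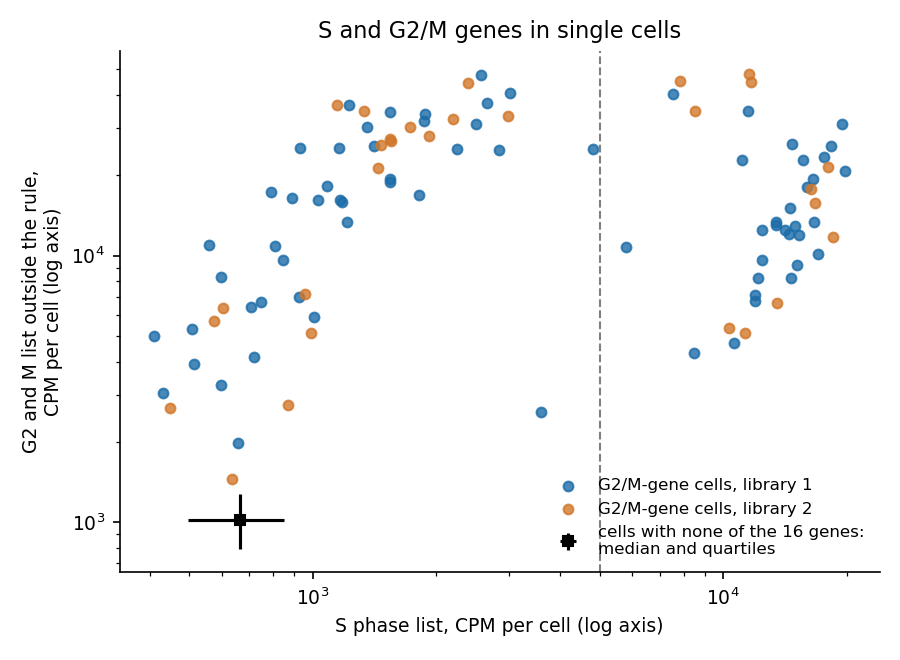
Each point is 1 G2/M-gene cell of library 1 or 2, with summed CPM of the S phase list on the horizontal log axis and of the list of G2 and mitosis genes outside the rule on the vertical log axis. The black square marks the medians and quartiles of comparison cells, and 41 cells lie to the right of the dashed line at 5000 CPM, apart from the other 59.

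Single rule genes divided between those groups in both libraries. Ccnb1 stood at 330 and 451 CPM in the cells under the line in libraries 1 and 2, against 45.6 and 106 CPM in the cells above it. Cdc20 stood at 524 and 926 CPM, against 142 and 166 CPM. Cenpe, a kinesin that moves chromosomes to the spindle's middle, stood at 300 and 480 CPM, against 46.8 and 119 CPM. Ccnb2, cyclin B2, and Cenpf had the same order in both libraries. Top2a ran the other way, with 384 and 382 CPM under the line, against 749 and 966 CPM above it, and so did Cdk1, with 278 and 282 CPM, against 483 and 579 CPM. Mki67 was alike, at 794 and 1219 CPM under the line, against 739 and 1298 CPM above it. Rrm2 was at 54.2 and 46.0 CPM under the line, against 573 and 647 CPM above it, and Ccne2 at 1.75 and 2.88 CPM, against 218 and 179 CPM. The rule thus took in cells rich in S phase RNA that held Mki67, Top2a and Cdk1 with little cyclin B, and cells rich in cyclin B, Cenpf and Cdc20 RNA. These are levels chosen by the list and the rule, and no test was made.

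The Star gate admitted every cell, so cortical identity was set by the rule. Cyp11a1, which makes pregnenolone from cholesterol, had a UMI in all 100 G2/M-gene cells, and Nr5a1, the factor SF1 that sets steroidogenic identity, in 92, against 5550 and 5058 of 5568 comparison cells. In leukocyte-rich cells the shares were 28.1% and 14.5% for Cyp11a1 and 10.1% and 3.95% for Nr5a1 in libraries 1 and 2, at a median of 5017 and 4173 UMIs, against 25651 and 18726 in the G2/M-gene cells. The green reporter eGFP stood at 2641 and 2238 normalised CPM, against 3236 and 2914 in comparison cells (log2 difference -0.33 ± 0.08 SE, edgeR quasi-likelihood adjusted p 0.00131), and the red reporter TdTomato had 0 UMIs, against 1. Cre did not pass the test (0.01 ± 0.12, adjusted p 0.963), and stood at 79.5 and 92 CPM in the 59 cells of lower S phase level, against 15.6 and 25.5 CPM in the 41 of higher level. The bGH feature of the reference was lower by 0.26 ± 0.09 on the log2 scale (adjusted p 0.0291). Leukocyte genes summed to over 500 CPM in 0 of 100 G2/M-gene cells, which allows a share of up to 3.62%, against 40 of 5568 comparison cells. A set number of cells with the highest doublet scores was marked per library, and 0 of the 100 were among them, against 189 of 5568. In library 1 the median doublet score was 0.0795 in G2/M-gene cells, against 0.0633 in comparison cells. The highest score there was 0.139, against 0.404. The leukocyte list (19 genes) summed to 4.55 and 5.15 CPM, against 35.9 and 104 CPM, with 5 and 3 of its genes holding a UMI. The endothelial list (10 genes) summed to 15.2 and 13.7 CPM, against 21.2 and 21.0. The chromaffin and nerve list (10 genes) summed to 8.09 and 6.86 CPM, against 4.35 and 5.67. The capsule and fibroblast list summed to 156 and 177 CPM, against 144 and 157, in 3 and 2 of its 10 genes. Haemoglobin genes summed to 2.02 CPM in library 1 and 4366 in library 2, against 169 and 201 CPM, and 1 cell of library 2 alone had 93478 CPM of them. The 4 tested haemoglobin genes all passed as higher, with a median of -6.26 in library 1 alone and 4.4 in library 2 alone, so that the 2 libraries went opposite ways. Few genes of the other lists were abundant enough to test: of 2 leukocyte genes 1 was lower (Cd74, 0 UMIs against 1786, at least 16-fold lower against a floor of 3 UMIs over the G2/M-gene cells), of 3 endothelial genes 1 was higher and 1 lower, of 2 capsule genes 1 was higher, and 1 chromaffin and nerve gene did not pass. With cells over 500 CPM of leukocyte genes left out, 2392 genes were higher and 2239 lower, against 2386 and 2235 with them, and none of 118 named genes compared lost its call. The part of the other cell types in the results below was not tested.

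The quasi-likelihood test of edgeR on UMIs summed per library and per number of rule genes held (0, 1 or 2, 3 to 5, at least 6) covered 11454 genes, with a term for the library. At an adjusted p under 0.05, 4621 genes (40.3%) differed between G2/M-gene cells and comparison cells, 2386 higher (20.8%) and 2235 lower (19.5%), and 4567 of the 4621 had the same sign in each library alone. At least 2-fold higher were 1180 genes (10.3%) and at least 2-fold lower 512 (4.47%). Without the cell cycle lists, 2226 were higher and 2235 lower of 11293. The median over all genes was -0.05 on the log2 scale. P-values rest on how far differences varied between the 2 libraries, with 3 residual degrees of freedom besides those borrowed across genes. That spread was estimated over all 4 groups by rule genes held, whose sums covered between 17 and 3945 cells. Every log2 difference below is G2/M-gene cells minus comparison cells.

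Genes of steroid synthesis were more often lower than higher in the G2/M-gene cells. Of 23 tested steroid synthesis genes besides Star, 14 were lower (against 19.5% of all genes), 2 were higher and 7 did not pass, with a median log2 difference of -0.54. The list without Star took 11466 and 9286 CPM in G2/M-gene cells of libraries 1 and 2, against 22629 and 22121 CPM in comparison cells. Its UMIs per cell were also fewer, at 319 and 187, against 418 and 305, although the G2/M-gene cells held more UMIs in all. Without the library term 9 steroid synthesis genes were lower, and after thinning to 5000 UMIs per cell also 9.

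Star itself (chr8:25806555-25815982) had a median of 929 and 587 CPM per cell in the G2/M-gene cells of libraries 1 and 2, against 2427 and 2556 CPM in comparison cells. Of the 100 G2/M-gene cells, 61 had under 1000 CPM of Star, against 393 of the 5568 comparison cells. As Star gated both kinds of cell, this is a description.

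Hsd3b1, which turns pregnenolone into progesterone (chr3:98852194-98859794), stood at 1686 and 1096 normalised CPM in the G2/M-gene cells, against 5000.4 and 3679 in comparison cells. The difference was 3.16-fold (log2 -1.66 ± 0.11 SE, adjusted p 1.15e-11). Cyp21a1, the 21-hydroxylase (chr17:34801348-34804561), stood at 2468 and 1627 CPM, against 5742 and 4723, or 2.57-fold lower (log2 -1.36 ± 0.08, adjusted p 2.01e-12). Cyp11a1 (chr9:58006411-58027023) stood at 1878 and 1537 CPM, against 3842 and 3469, or 2.14-fold lower (log2 -1.10 ± 0.07, adjusted p 1.14e-11). All 3 were lower in both libraries.

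The electron carriers of the mitochondrial P450 enzymes fell too. Fdx1, ferredoxin (chr9:51943306-51963556), stood at 1409 and 490 CPM, against 3887 and 3117, for a log2 difference of -1.90 ± 0.19 (adjusted p 2.12e-08). The libraries differed in size for Fdx1, with -1.46 in library 1 alone and -2.67 in library 2 alone. Its reductase Fdxr stood at 762 and 514 CPM, against 1547 and 1200 (log2 -1.10 ± 0.08). Scarb1, the receptor that takes up cholesterol esters from HDL, stood at 118 and 76.1 CPM, against 261 and 305, and its log2 difference of -1.41 ± 0.14 was -1.15 in library 1 alone and -2.0 in library 2 alone. Akr1b7, an aldo-keto reductase of the fasciculata, fell by 1.12 on the log2 scale (676 and 411 CPM, against 1306 and 1077). Srd5a2 had 0 UMIs in G2/M-gene cells, against 407 and 307 UMIs in the comparison cells of libraries 1 and 2.

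Other steps changed less or the other way. Srd5a1, a 5-alpha-reductase, was higher at 35.8 and 33.3 CPM, against 16.6 and 19.5 (log2 1.02 ± 0.18, adjusted p 8.05e-05), and Cyb5b, a cytochrome b5 of the outer mitochondrial membrane, was higher by 0.26. Cyp51 and Msmo1, enzymes of cholesterol synthesis, were among 9 lower genes of 25 tested in that list, with 2 higher and 14 not passing. Over all genes, 19.5% were lower and 20.8% higher. Dhcr7, the last enzyme of one branch of that route, fell by 1.65 ± 0.16 on the log2 scale (27.1 and 25.4 CPM, against 81.5 and 87.3). Acat2, which condenses acetyl-CoA at its start, was higher by 1.03 ± 0.17 (36.3 and 42.8 CPM, against 17.7 and 21.2). Tspo, Npc2 and Por did not pass the test. The calls of Cyb5b, Acat2 and Msmo1 were lost after thinning.

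**Figure D3:**
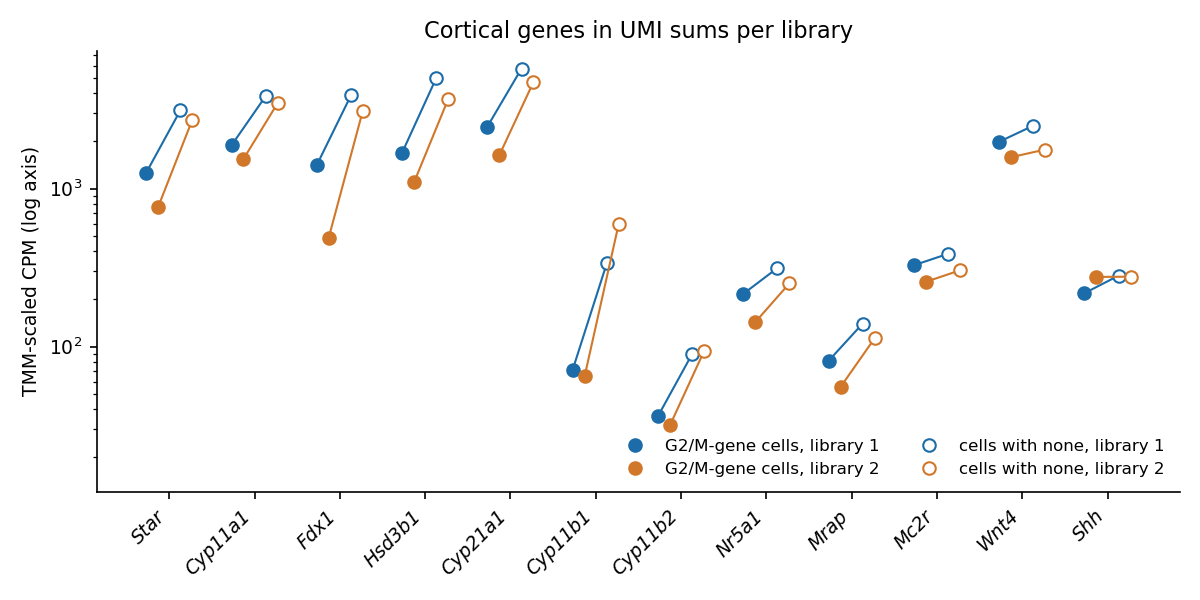
TMM-scaled CPM (log axis) of 12 cortical genes in the UMI sums of each library, with G2/M-gene cells as filled points joined to the comparison cells of the same library as open points. Star, Cyp11a1, Fdx1, Hsd3b1, Cyp21a1, Cyp11b1 and Cyp11b2 slope most, while Mc2r, Wnt4 and Shh lie nearly level.

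Among the G2/M-gene cells, those with more G2 and mitosis RNA tended to have less Cyp11a1 RNA, and less Star RNA in library 1. Spearman's rho between the G2 and mitosis list and Cyp11a1 was -0.55 over the 71 cells of library 1 and -0.49 over the 29 of library 2, and with Star -0.53 and -0.20. The cells share a library and each total enters both values of a pair, so these are descriptions. The median Cyp11a1 level was 1955 CPM in the 26 cells with 6 to 8 rule genes, 1908 in the 18 with 9 to 12 and 1348 in the 56 with 13 to 16. The 59 cells with the lower S phase level had medians of 1094 CPM for Cyp21a1 and 809 for Hsd3b1, and the 41 with the higher S phase level had 2528 and 1690. Set against the same comparison cells, Cyp21a1 differed by -1.85 in the cells with the lower S phase level and by -0.75 in those with the higher, and Cyp11a1 by -1.26 and -0.76. Each passed the edgeR test (adjusted p 4.17e-11 and 5.16e-10 for Cyp21a1), and the difference between the kinds of cell was not tested.

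Zonal genes fell on both sides of the glomerulosa to fasciculata axis. Of 9 tested fasciculata genes, 7 were lower, 1 higher and 1 not passing (median -1.12), and of 17 tested glomerulosa genes 12 were lower, 1 higher and 4 not passing (median -0.52), against 19.5% lower and 20.8% higher of all genes. Without the library term 3 of the glomerulosa genes were lower. The higher gene of the fasciculata list carries the symbol Sf1, a splicing factor that shares its name with the nuclear receptor SF1 encoded by Nr5a1. The fasciculata list took 4100 and 2763 CPM in G2/M-gene cells, against 9966 and 9623 CPM, and the glomerulosa list 5842 and 6068 CPM, against 8153 and 8887 CPM. In UMIs per cell the fasciculata list was at 0.621 and 0.418 times the comparison cells, and the glomerulosa list at 1.08 and 0.994 times.

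Cyp11b1, the 11-beta-hydroxylase that makes corticosterone (chr15:74834125-74841643), had a log2 difference of -2.59 ± 0.26 (adjusted p 3.07e-08). It stood at 71.5 and 65.0 CPM in G2/M-gene cells, against 337 and 599 in comparison cells. The difference was -2.23 in library 1 alone and -3.20 in library 2 alone. Cyp11b2, aldosterone synthase (chr15:74851010-74856318), stood at 36.3 and 31.7 CPM, against 89.7 and 93.6 (log2 -1.36 ± 0.13, adjusted p 2.22e-08). Reads of these close paralogs may be shared between them. Without the library term both calls held.

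Genes of the glomerulosa behaved unequally. Kcnk3, a potassium channel that holds the membrane potential of these cells, stood at 1203 and 855 CPM, against 2128 and 1984, and was lower (log2 -1.0 ± 0.09). Agtr1a, the angiotensin II receptor, was lower at 315 and 206 CPM, against 553 and 420.1 (log2 -0.88 ± 0.09). Dab2, an endocytic adaptor used as a glomerulosa marker, was lower by 0.70 ± 0.08 (1003 and 1197 CPM, against 1613 and 1966). Wnt4, a ligand of the outer cortex (chr4:137277489-137299726), changed by -0.25 ± 0.07 (1978 and 1580 CPM, against 2500.2 and 1765, adjusted p 0.00587), while its UMIs per cell were more numerous, 51.4 and 34.3, against 40.9 and 25.5. Shh, the hedgehog ligand of outer cortical progenitors, stood at 218 and 276 CPM, against 281 and 277, and did not pass (adjusted p 0.0752). Axin2, a target of WNT signalling, stood at 115 and 154 CPM, against 114 and 109, and did not pass (adjusted p 0.307). Rspo3, a WNT amplifier of the capsule, was higher by 0.51 ± 0.17 (39.5 and 25.4 CPM, against 29.3 and 13.7). It was the higher gene of both the glomerulosa list and the capsule list. Without the library term the calls of Agtr1a, Dab2, Wnt4, Rspo3 and Vsnl1 were lost. Vsnl1, a calcium sensor, was lower by 0.48 ± 0.11, with -1.11 in the cells of lower S phase level and 0.23 in those of higher level (adjusted p 0.115).

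A list of 8 genes covered the X-zone, the inner cortical layer, and the inner cortex. Aldh1a1, a retinaldehyde dehydrogenase, had 3 UMIs in G2/M-gene cells, against 3210 in comparison cells. Of 5 tested X-zone and inner cortex genes 3 were lower, with 2 not passing, against 19.5% lower of all genes, and 2 of the 5 tested genes were Aldh1a1 and its close paralog Aldh1a7, whose reads may be shared. Hhex stood at 16.3 and 9.52 CPM, against 36.4 and 46.5 (log2 -1.42 ± 0.24). Abcb1b, a drug exporter of inner fasciculata cells, stood at 23.8 and 12.7 CPM, against 72.0 and 179, and its log2 difference of -2.25 ± 0.32 was -1.59 in library 1 alone and -3.80 in library 2 alone.

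At the level of single cells, G2/M-gene cells mostly had neither terminal enzyme after thinning to 5000 UMIs. Neither Cyp11b1 nor Cyp11b2 had a UMI in 81.2% of 69 G2/M-gene cells of library 1 (exact interval 69.9% to 89.6%) and in 74.1% of 27 of library 2 (53.7% to 88.9%), against 50.7% of 3737 and 44.5% of 1357 comparison cells. Thinning left out 2 G2/M-gene cells in each library, and 208 and 266 comparison cells, with too few UMIs. Cyp11b2 alone had a UMI in 2.90% and 11.1%, against 17.3% and 17%, and Cyp11b1 alone in 13% and 14.8%, against 27.5% and 33.7%. Without thinning, the share with neither was 46.5% and 51.7%, against 29.9% and 29.8%. Cells rich in leukocyte genes, which could include cells past the Star gate, had a Cyp11b1 UMI in 4.35% of 46 and 6.90% of 29 thinned cells. They had a Cyp11b2 UMI in 0 of 46 and 0 of 29. Their median depth before thinning was 9180 and 7333 UMIs, against 26654 and 19179 in the G2/M-gene cells. Among all thinned cortical cells, G2/M-gene cells made up 2.37% and 2.60% of those with neither enzyme, 0.727% and 0.766% of those with Cyp11b1 alone, and 0.265% and 1.06% of those with Cyp11b2 alone. A cell without a UMI may still express the gene at a low level, and no test was made on cells, which are not replicates.

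**Figure D4:**
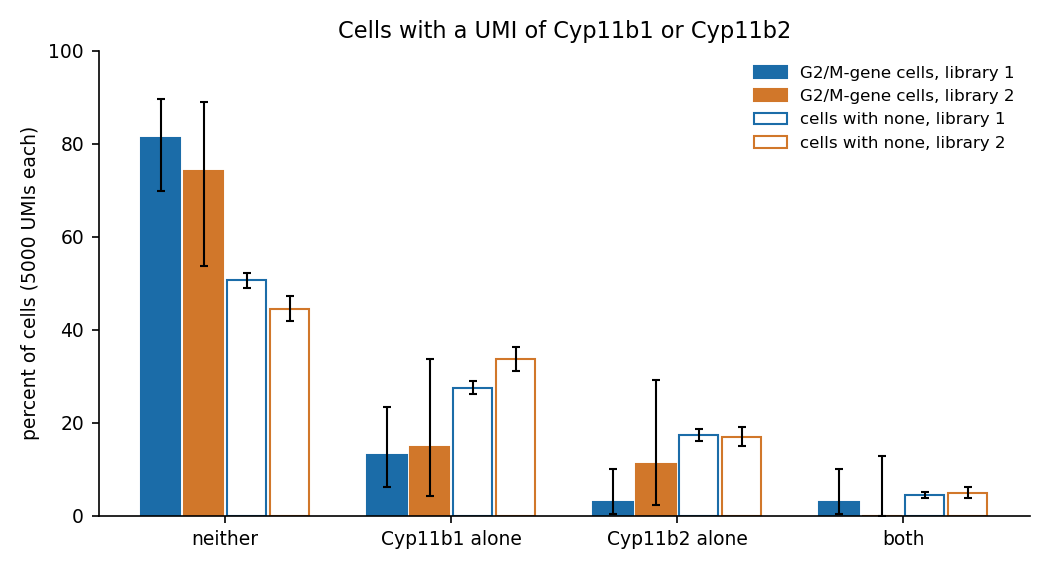
Percent of cells (bars from 0, with exact 95% intervals) with a UMI of neither enzyme, Cyp11b1 alone, Cyp11b2 alone or both, after thinning to 5000 UMIs, in G2/M-gene cells (filled) and comparison cells (open) of each library. The class with neither enzyme holds 81.2% and 74.1% of G2/M-gene cells, against 50.7% and 44.5% of comparison cells.

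Regulators of adrenal identity and of the response to ACTH, the pituitary hormone that drives the fasciculata, were more often lower than higher. Of 12 tested identity factors, 5 were lower, 1 higher and 6 not passing. Nr5a1 stood at 216 and 143 CPM, against 314 and 251 (log2 -0.63 ± 0.10, adjusted p 1.24e-05). Without the library term the calls of Nr5a1 and Mc2r were lost. Nr0b1, the repressor DAX1, fell by 1.52 ± 0.29 (8.67 and 4.76 CPM, against 22.8 and 20.04). Nr3c1, the glucocorticoid receptor, was the higher one, at 49.3 and 53.9 CPM, against 21.4 and 28.5 (log2 1.12 ± 0.14, adjusted p 1.52e-06). It did so in the cells with the higher S phase level (1.99, adjusted p 1.31e-10), while those with the lower level did not pass (0.10, adjusted p 0.802), and the difference between them was not tested. Of 23 tested ACTH and cyclic AMP genes 8 were lower, 1 higher and 14 not passing. Of all genes 19.5% were lower and 20.8% higher. In UMIs per cell both lists were more numerous in libraries 1 and 2. Identity factors stood at 1.26 and 1.15 times the comparison cells, and ACTH and cyclic AMP genes at 1.43 and 1.25 times. Mrap, which carries the ACTH receptor to the surface, fell by 0.83 ± 0.12 (81.3 and 55.5 CPM, against 140.0 and 113). Crem, a cyclic AMP-responsive factor, fell by 1.42 ± 0.18 (22.2 and 9.52 CPM, against 53.0 and 44.3), with -1.25 in library 1 alone and -2.20 in library 2 alone. Mc2r, the ACTH receptor, changed by -0.24 ± 0.08 (327 and 257 CPM, against 386 and 304, adjusted p 0.0242), and that call was lost with comparison cells drawn to the same classes of Cyp11b1 and Cyp11b2 (-0.21, adjusted p 0.0583).

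Regulators of the G1 phase moved in both directions. Of 29 tested G1 cyclins, CDK inhibitors and genes of quiescence, 12 were higher, 9 lower and 8 not passing, against 20.8% and 19.5% of all genes, with a median of -0.02. D-type cyclins, which act in G1, were lower or did not pass. Ccnd2 (chr6:127125162-127152193) stood at 722 and 362 CPM in G2/M-gene cells, against 1655 and 1048 in comparison cells (log2 -1.33 ± 0.09, adjusted p 2.61e-11). Ccnd1 stood at 307 and 168 CPM, against 450.1 and 341 (log2 -0.72 ± 0.10), and Ccnd3 at 253 and 274 CPM, against 290.2 and 265 (adjusted p 0.436). The calls of Ccnd1 and Ccnd2 were lost without the library term. Ccnd3 was at 0.37 in the cells of higher S phase level and -0.49 in those of lower level (adjusted p 0.00911 and 0.000291).

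Inhibitors of cyclin-dependent kinases were among the higher genes. Cdkn2a, whose locus encodes p16 and p19ARF (chr4:89274471-89294653), stood at 173 and 132 CPM in G2/M-gene cells, against 24.96 and 15.6 in comparison cells. That is 7.31-fold (log2 2.87 ± 0.11, adjusted p 6.21e-16), and the 3′ counts do not tell its transcripts apart. Cdkn1a, which encodes p21 (chr17:29090976-29100727), stood at 309 and 184 CPM, against 75.8 and 41.1, or 4.20-fold (log2 2.07 ± 0.10, adjusted p 2.71e-14). Cdkn2d, which encodes p19INK4d, rose by 2.54 ± 0.11 (160.3 and 111 CPM, against 26.3 and 21.4), and Cdkn2c, p18INK4c, by 1.09 ± 0.09 (231 and 201 CPM, against 118 and 80.3). Cdkn1b, p27, rose by 0.68 ± 0.16, while Cdkn1c, p57, did not pass (194 and 171 CPM, against 183 and 177, adjusted p 0.815). Cdkn2b, p15, fell by 1.28 ± 0.30 (9.75 and 3.17 CPM, against 20.2 and 17.3), with -1.04 in library 1 alone and -2.40 in library 2 alone. Of the pocket proteins, Rbl1, p107, rose by 3.52 ± 0.21 (63.4 and 49.2 CPM, against 4.55 and 6.40), with 3.76 in library 1 alone and 2.91 in library 2 alone, and Rb1 by 1.51 ± 0.20. Rbl2, p130, did not pass. How far the rises of these inhibitors and pocket proteins follow from the choice of cycling cells was not tested. The calls of Cdkn1b and Cdkn2b were lost without the library term. Cdkn1a, Cdkn2a, Cdkn2d and Rbl1 each passed the test both in the cells of lower and in those of higher S phase level. Rbl1 stood at 19.2 and 14.4 CPM in the cells of lower level in libraries 1 and 2, against 114 and 111 in those of higher level. Cdkn2d stood at 90.9 and 89.1 CPM, against 230 and 166, and Cdkn1a at 219 and 150 CPM, against 383 and 272. Cdkn2a stood at 159 and 121 CPM, against 166 and 175. These differences were not tested.

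WNT and growth factor genes showed no common direction. Of 26 tested WNT genes 7 were higher, 5 lower and 14 not passing, shares near the 20.8% and 19.5% of all genes. Wif1, a secreted WNT inhibitor, stood at 18.4 and 20.6 CPM, against 3.73 and 1.92 (log2 2.59 ± 0.38, adjusted p 7.50e-06), from 47 UMIs in the G2/M-gene cells. It passed in the cells of lower S phase level (3.26) and not in those of higher level (0.38, adjusted p 0.793), and it was 2.26 in library 1 alone and 3.33 in library 2 alone. Sfrp1 and Notum, further extracellular WNT antagonists, rose by 1.31 ± 0.26 and 0.90 ± 0.24. Ctnnb1, beta-catenin, was higher by 0.25 ± 0.08 (317 and 387 CPM, against 268 and 324). Lrp5, a WNT co-receptor, fell by 0.84 ± 0.19. Of 20 tested growth factor genes 4 were higher, 7 lower and 9 not passing. Etv4 and Etv5, factors that follow ERK signalling, rose by 2.25 ± 0.41 and 0.81 ± 0.10, while Igf1r, the IGF1 receptor, fell by 0.64 ± 0.10 (72.0 and 77.7 CPM, against 115 and 116). Of 7 tested progenitor and hedgehog genes 2 were higher, 1 lower and 4 not passing. The lower one was Nr0b1, also counted among the identity factors. Gli1, the hedgehog target, had 2 UMIs, against 23, and was not tested. Gli3 rose by 0.95 ± 0.20 but stood at -0.15 in the cells of lower S phase level (adjusted p 0.774). The calls of Sfrp1, Notum and Gli3 were lost without the library term, and those of Notum and Lrp5 after thinning.

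Chromatin genes rose almost without exception. Of 30 tested genes of chromatin and replication-linked histones, 29 were higher (against 20.8% of all genes), with a median of 1.47, and only Hmgb3 did not pass. The histone genes of S phase in this list follow from the choice of cycling cells, as the cell cycle lists do. How far the other chromatin genes follow from it was not tested, so the count is a description. H2afz, the variant histone H2A.Z, stood at 4361 and 3774 CPM, against 567 and 468 (log2 2.98 ± 0.08). Hmgn2, a nucleosome-binding protein, rose by 3.41 ± 0.10 (641 and 766 CPM, against 69.7 and 60.1), and Ezh2, the methyltransferase of Polycomb, by 3.94 ± 0.10 (207 and 198 CPM, against 13.4 and 13). Hist1h1b and Hist1h2ap, linker and core histones made in S phase, rose by 4.92 ± 0.09 and 6.08 ± 0.12. Hist1h2ap stood at 111 and 14.4 CPM in the cells of lower S phase level, against 1729 and 311 in those of higher level. Hist1h3c had 87 UMIs in G2/M-gene cells and 0 in comparison cells, at least 1079-fold higher against a floor of 3 UMIs over the comparison cells. Replicative histone RNAs mostly lack poly(A) tails and resemble one another, so a poly(A)-primed kit counts few of them and may share their reads.

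RNA of ribosomal proteins and of the mitochondrial genome took a smaller share, while nucleolar genes took a larger one. Of 50 ribosomal protein genes 42 were lower (against 19.5% of all genes), 0 higher and 8 not passing (median -0.31), and all 13 mitochondrially encoded genes were lower (median -0.44). Rpl10 stood at 1265 and 867 CPM, against 2206 and 1637 (log2 -0.85 ± 0.07), and mt-Nd1 at 2730.2 and 1886 CPM, against 3836 and 3020.4 (-0.57 ± 0.08). In UMIs per cell both lists were more numerous, at 1.26 and 1.16 times the comparison cells for ribosomal proteins and 1.20 and 1.09 times for mitochondrial genes. Without the library term, 0 of the 50 and 0 of the 13 passed. Of 25 ribosome biogenesis genes 9 were higher (against 20.8% of all genes), 0 lower and 16 not passing. Nop58 and Nop56, core proteins of box C/D particles, rose by 0.87 ± 0.09 and 0.63 ± 0.10. Nuclear genes of oxidative phosphorylation were mixed, with 8 higher, 16 lower and 24 not passing of 48, against 20.8% higher and 19.5% lower of all genes. Their differences lay between -0.69 (Ndufa7) and 0.57 (Cox7a2).

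Chaperones and genes of the unfolded protein response went in both directions. Of 28 tested, 7 were higher, 11 lower and 10 not passing, against 20.8% and 19.5% of all genes. Hsp90aa1, the inducible cytosolic HSP90 (chr12:110690605-110702728), stood at 1569.8 and 1654 CPM, against 617 and 629 (log2 1.37 ± 0.07, adjusted p 2.94e-13). Sdf2l1, a chaperone partner in the endoplasmic reticulum, rose by 1.17 ± 0.11. Hspa1a, the inducible HSP70, fell by 1.93 ± 0.25 (6.5 and 11.1 CPM, against 23.0 and 47.5). Hspe1 and Hspd1, the chaperonin pair of the mitochondrial matrix, fell by 1.08 ± 0.09 and 0.69 ± 0.09.

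Immediate early genes, which report both growth signals and the stress of dissociation, were mixed. Of 20 tested, 3 were higher, 8 lower and 9 not passing, against 20.8% and 19.5% of all genes. Fos did not pass (12.5 and 34.9 CPM, against 13.98 and 51.0, adjusted p 0.1996). Ier5 and Klf4 rose by 1.98 ± 0.28 and 1.78 ± 0.26, and Fosl2 and Junb fell by 1.44 ± 0.25 and 0.75 ± 0.14. The calls of Fosl2 and Myc were lost without the library term and after thinning, that of Junb without the library term and that of Ier5 after thinning. Klf4 was 1.53 in library 1 alone and 2.36 in library 2 alone. Myc, a driver of growth, fell by 0.94 ± 0.25 (17.9 and 11.1 CPM, against 28.0 and 40.2), with -0.64 in library 1 alone and -1.84 in library 2 alone.

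Some nuclear long noncoding RNAs were lower in G2/M-gene cells. Malat1, a nuclear-retained RNA (chr19:5795690-5802672), stood at 11326 and 11385 CPM, against 26551 and 30922, or 2.53-fold lower (log2 -1.34 ± 0.12, adjusted p 3.51e-09). Its UMIs per cell were also fewer, at 294 and 248, against 435 and 447. Meg3 stood at 460.4 and 558 CPM, against 993 and 1606 (log2 -1.29 ± 0.09), and 4 of 6 tested RNAs of this list were lower, 0 higher and 2 not passing, against 19.5% lower and 20.8% higher of all genes.

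**Figure D5:**
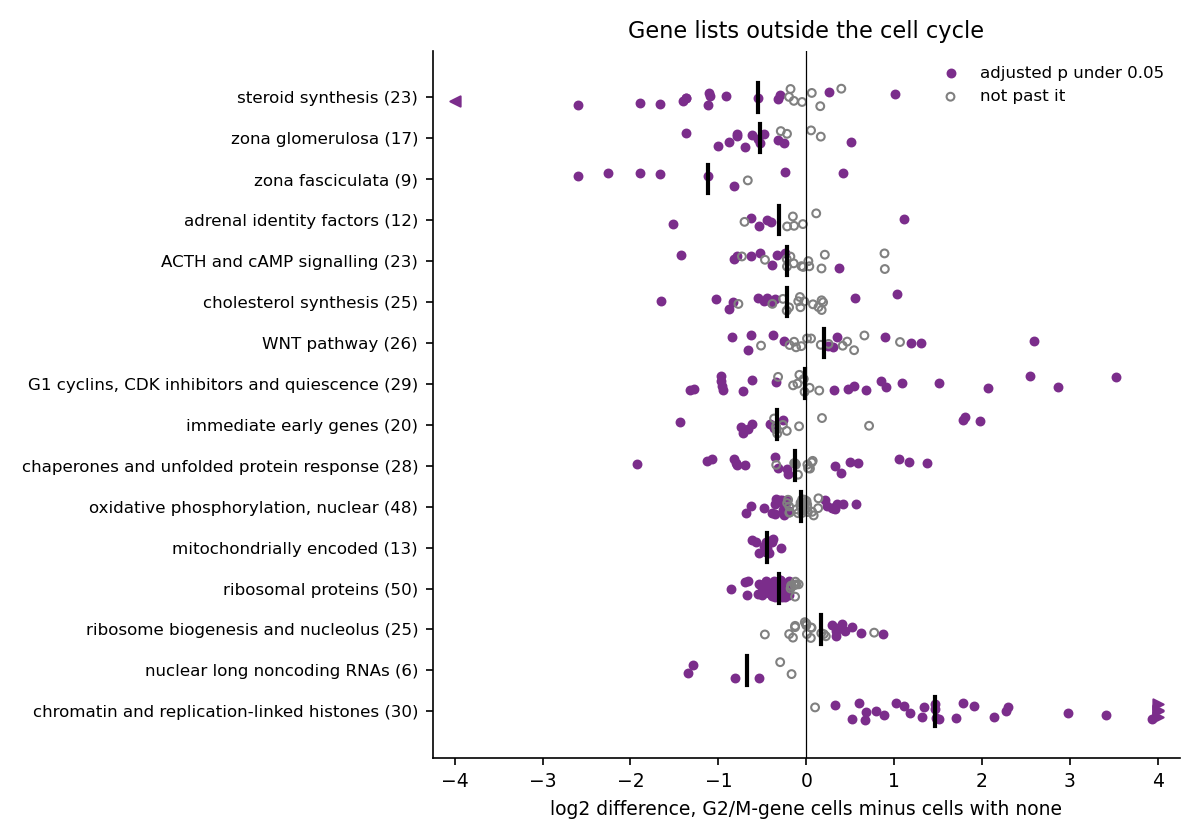
Log2 difference (G2/M-gene cells minus comparison cells) of each tested gene in 16 lists, with the number tested in brackets, filled points for genes past the edgeR threshold, open points for the rest, a bar at the median and triangles for values beyond 4. All chromatin genes lie right of 0, and fasciculata and steroid synthesis genes lie mostly left of it.

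Among genes in no list, the highest differences belonged mostly to genes known from cell division. Mxd3 had 296 UMIs in G2/M-gene cells and 1 in comparison cells, Esco2, which joins sister chromatids, 336 and 5, Pclaf, a PCNA-binding protein, 673 and 17, Cdkn3, a phosphatase of CDKs, 522 and 15, and Diaph3, a formin, 399 and 24. Fam83d, a spindle protein, had 102 UMIs and 0, at least 1265-fold higher against the floor of 3 UMIs over the comparison cells. These genes follow from the choice of cycling cells in the way the cell cycle lists do. Among the lower genes, Ly6k had 4 UMIs, against 5356 in comparison cells, or 2.17 and 0 CPM, against 52.5 and 83.7. Psen2, a presenilin, stood at 4.88 and 9.52 CPM, against 40.1 and 32.5 (log2 -2.65 ± 0.32), with -3.00 in library 1 alone and -1.76 in library 2 alone. Adh1, an alcohol dehydrogenase, stood at 17.9 and 11.1 CPM, against 96.7 and 85.1 (log2 -2.54 ± 0.20). Acsbg1, an acyl-CoA synthetase, fell by 2.50 ± 0.34, and Hmox1, heme oxygenase, fell by 2.09 ± 0.27 (15.2 and 12.7 CPM, against 69.2 and 47.9). Susd3 and Sh3bgr had 0 UMIs in the 29 cells of library 2, and 27 and 19 UMIs in the 71 of library 1.

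The cells with 3 to 5 of the 16 genes, 40 in library 1 and 17 in library 2, lay between the G2/M-gene cells and the comparison cells for some genes: for 80 of 119 named genes in library 1, 68 in library 2 and 54 in both. Hsd3b1 stood at 3568 and 1667 CPM in them, Cyp21a1 at 2914 and 2499 CPM, Cdkn1a at 117 and 117 CPM and Malat1 at 21122 and 14043 CPM. These 4 genes are among the 54, while Cdkn2d stood at 19.2 and 7.08 CPM, under both kinds of cell. Fdx1 stood at 1301 CPM in library 1, below the 1409 of the G2/M-gene cells there, and at 1423 CPM in library 2. At least 5000 CPM of the S phase list were in 14 of these 57 cells.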

How the data were processed

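Each of 2 libraries came as a deposited matrix of UMI counts by gene and barcode. Cell Ranger and build mm10 are named in the submitters' processing notes. All 31057 features were read, and 31011 identifiers matched GENCODE vM21.

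UMIs were summed per library over cells holding 0, 1 or 2, 3 to 5, or at least 6 of the 16 genes, giving 8 sums. edgeR 4.0.16 (R 4.3.3) tested at least 6 against 0 by quasi-likelihood with TMM scaling, its low-count filter and Benjamini-Hochberg adjustment at 0.05. A library term was fitted because each library holds every stratum. P-values measure the spread between libraries, which may be technical, and not the spread between cells. Tested on simulated data for this comparison (10673 genes), the model called 38 of 47 and 37 of 48 genes changed by 1 and -1 on the log2 scale, and 9 of 10485 unchanged genes. The simulated counts were drawn with the same spread for every gene and sum, with no added spread between cells. They therefore do not give the error rate in the real data. Free RNA was not subtracted, and scrublet scores (scanpy 1.11.5) marked doublets without removing them.

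The cells and lists were chosen with earlier results of these data known. Genes named were up to 3 per list and direction with the largest difference that passed the test, shared their sign between libraries and reached 10 CPM on the higher side, 10 per direction in no list that reached 20 CPM and had more than a gene-model name, 23 fixed genes and, as description, the rule genes, reporter features and cell cycle genes. The genes Akr1b7, Aldh1a7, Cdkn2c, Ctnnb1, Cyp51, Ezh2, Fdxr, H2afz, Hmgb3, Hmgn2, Hspd1, Igf1r, Npc2, Por, Rb1, Rbl2, Scarb1, Srd5a2 and Tspo were named after their values were seen, as was the line at 5000 CPM of the S phase list. No feature carried the symbols Fam64a, Ccn3, Icer, Gas5, Rian, Ccn1 or Ccn2, and those listed genes were not analysed here. Alternatives covered scaling, filters, thinning, depth, zone, doublets, gates, DESeq2 1.42.0 and each library alone.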

Additional observations from a re-analysis of the deposited data

How the results depend on the processing

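Of 119 named genes compared, none lost its call with RLE size factors, doublets removed, at most 15% mitochondrial UMIs, cell cycle lists left out of library sizes and a Cyp11a1 gate in place of Star. Of 4621 genes that passed, 4567 had the same sign in each library alone, and sharing it was part of the choice of named genes. Of the 6 named genes that did not pass, 3 (Cre, Ccnd3 and Cdkn1c) turned in library 2 alone. No count of calls can be had from 1 library because no residual degrees of freedom remain. The labels number no replicates across the groups, and each library serves as the replicate block since both kinds of cell come from it. Without that block 1179 genes were higher and 472 lower, and 50 named genes lost their call, among them Nr5a1, Ccnd1, Ccnd2, Agtr1a, Dab2 and Wnt4, and 0 ribosomal protein and 0 mitochondrially encoded genes passed. With cells thinned to 5000 UMIs, which tested 6961 genes in 47 and 17 G2/M-gene cells, 916 were higher and 622 lower, and 25 named genes lost their call. DESeq2 called 1470 lower and 2179 higher, and 9 named genes lost their call. Steroid synthesis had 14 lower genes, and 9 without the block and 9 after thinning. The share of G2/M-gene cells in library 1 was 1.03% after thinning. The share with neither Cyp11b enzyme depended on depth and on the UMIs asked for: with all UMIs it was 46.5% and 51.7% of G2/M-gene cells in libraries 1 and 2, against 29.9% and 29.8% of comparison cells, and with 3 UMIs of Cyp11b1 asked for after thinning it was 92.8% and 77.8% of G2/M-gene cells, against 61.3% and 54.3% of comparison cells. Directions turned for Cre in the cells of higher S phase level (-1.52), for Gli3 after thinning (-0.39) and in the cells of lower S phase level (-0.15), for Prkar2a in the cells of lower S phase level (-0.40), and for Vsnl1 (0.23) and Ccnd3 (0.37) in the cells of higher S phase level. The cause was not tested. The settings by S phase level, the Cyp11a1 gate, the cells left out for leukocyte genes and the changed library sizes were chosen after seeing the data. Depth limits low genes most in library 2, where the 29 G2/M-gene cells held 582682 UMIs in all.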
